A study of Rosa hybrid cultivar with 39 samples.

Results

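Petals of rose 'Samantha' given brassinosteroid (BR) were compared directly with petals given gibberellin (GA3), gene by gene, and for each gene the water control (H2O) shows which of the hormones departed from it. The comparison covers the 14005 gene identifiers, of 30208 in all, that reached at least 1 FPKM in BR or in GA3. FPKM counts sequenced fragments relative to transcript length and to all mapped fragments of a library, and values of transcripts with the same identifier were added up. BR was epibrassinolide, listed in the paper as 2,4-epibrassinolide, at 5 µM. GA3 was gibberellic acid at 80 µM, and H2O was deionized water. Cut stems at the second stage of flower opening stood in each solution for 24 h before RNA was taken from the outer petals. The compared conditions hold 6 of the 39 samples, with 3 each for BR and GA3, and each replicate pooled several flowers. The conditions set beside them were the auxins NAA and 2,4-D, the cytokinin 6-BA, abscisic acid (ABA), jasmonate (JA), salicylic acid (SA) and the ethylene action inhibitor AgNO3, all in solution, and, as gas treatments, air (ET-CK) and the ethylene action inhibitor 1-MCP. The values deposited for ethylene were the same as those for ET-CK, so ethylene was left out and values given for ET-CK carry this doubt. The doses differ, so the numbers of genes are not a comparison of potency. Only 1 average per condition was analysed here, so the spread between replicates is unknown, no difference could be tested, and every fold below is a description of these averages. The depth behind the averages cannot be read from FPKM, but the paper lists reads and RNA integrity, a score of how intact the RNA was, for each sample. Integrity ran lower in BR than in GA3, with overlap, and its bearing on the averages was not tested.

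Brassinosteroids are plant steroid hormones, and in Arabidopsis they are sensed at the cell surface by the receptor kinase BRI1, which leads to active transcription factors of the BZR1 family. Gibberellins are diterpenoid hormones sensed inside the cell by GID1 receptors, which bring about the breakdown of DELLA repressors. In Arabidopsis, DELLA proteins bind BZR1 and hold it back, so the pathways meet on genes of cell elongation, and petals open largely by cell expansion. The genes here carry LOC identifiers that the files do not pair with names, so their roles, and markers of petal or of other tissues, could not be looked up. Positions refer to loci as deposited, on the 'Old Blush' genome RchiOBHm-V2, and a locus can carry several identifiers.

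BR and GA3 petals were alike at most genes. Of the 14005 genes, 9692, or 69.2%, lay within 1.25-fold of each other, and the middle of the log2 ratios of BR over GA3 was 0.02. Here and below 1 was added to each FPKM before a log2 ratio was taken, and this makes the ratios of weakly expressed genes too small. At least 2-fold apart were 677 genes, which is 4.83% of those compared. Of these, 150 (1.07%) were higher and 527 (3.76%) lower in BR than in GA3. The fifth percentile of the ratios was -0.84 and the 95th 0.58, so the tail of genes lower in BR was the longer one. At least 4-fold differences were seen at 12 higher and 124 lower genes, and at least 8-fold differences at 1 higher and 21 lower genes.

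The genes lower in BR were not all weakly expressed. Their median FPKM was 3.41 in BR and 14.7 in GA3, with 9.72 in H2O, while the median of all genes compared was 10.1 in BR, 10.4 in GA3 and 9.26 in H2O. Of the 527 genes, 311 reached 10 FPKM and 67 reached 100 FPKM in the higher condition, and 124 stayed under 5 FPKM in both. The 150 genes higher in BR had a median FPKM of 13.8 in BR, 5.08 in GA3 and 5.29 in H2O. Of these, 90 reached 10 FPKM, 30 reached 100 FPKM and 36 stayed under 5 FPKM in both. Summed over genes, the 527 lower genes made up 0.977% of all FPKM in BR, 3.35% in GA3 and 2.98% in H2O. The 150 higher genes made up 1.74% in BR, 0.667% in GA3 and 0.670% in H2O. For both sets the share in GA3 was nearer to that in H2O than the share in BR was.

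**Figure D1:**
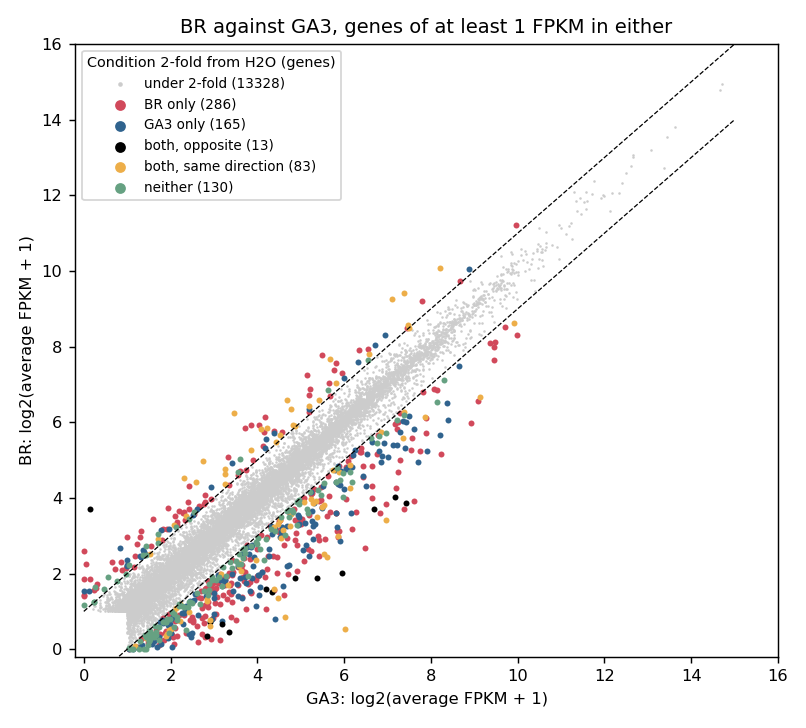
Average expression of each of 14005 genes in BR (vertical axis) and GA3 (horizontal axis), both as log2(FPKM + 1), with dashed lines at 2-fold and colours for the condition that lay at least 2-fold from H2O. More coloured points lie below the lower line (527 genes) than above the upper line (150 genes), and the most abundant genes lie near the diagonal.

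The most abundant transcripts hardly separated the hormones. Among the 50 genes with the highest FPKM in BR or GA3, which held 29.3% of all FPKM in BR and 27.6% in GA3, 1 was at least 2-fold higher in BR and 0 were lower. The ratios of these 50 genes ran from -0.66 to 1.26 on the log2 scale. The 1 gene was LOC112180411, at 2360 FPKM in BR, 988 in GA3 and 1010 in H2O, so that GA3 and water were nearly level and BR was not.

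Each of the 677 genes was then placed by the condition that lay at least 2-fold from H2O. A value under 2-fold from H2O is called near water below. BR alone lay away at 286 genes, GA3 alone at 165, both in the same direction at 83, both in opposite directions at 13, and neither at 130. Over all 14005 genes, BR was at least 2-fold from H2O at 14.3%, with 8.73% higher and 5.54% lower, and GA3 at 10.7%, with 7.73% higher and 2.98% lower. BR alone was 2-fold from H2O at 7.22% of all genes, GA3 alone at 3.67%, and both in the same direction at 6.95%. Of the 974 genes of that shared kind, 83 also differed 2-fold between the hormones. The ratios to H2O use the same water average, and the BR and GA3 values also make up the direct ratio, so these shares describe the genes and carry no test.

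Among the 527 genes lower in BR than in GA3, the commonest pattern was a low value in BR with GA3 near water. This held for 213 genes, whose median log2 ratio to H2O was -1.61 in BR and 0.03 in GA3. Next came 140 genes with a high value in GA3 and BR near water, with medians of -0.01 in BR and 1.60 in GA3. In 44 genes both hormones were below water, with BR farther below, and in 9 genes both were above, with GA3 farther above. Which hormone was farther follows here from the choice of genes lower in BR. In 12 genes BR was below and GA3 above water. In the remaining 109 genes neither hormone reached 2-fold from water, so that water necessarily lay between them.

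Among the 150 genes higher in BR than in GA3, 73 were high in BR with GA3 near water, with median log2 ratios to H2O of 1.63 in BR and 0.26 in GA3. In 30 genes both hormones were above water and BR was farther above, which again follows from the choice of genes. In 25 genes BR was near water and GA3 below it, with medians of -0.08 in BR and -1.30 in GA3. In 1 gene BR was above and GA3 below water, and in 21 genes neither reached 2-fold. Taken by the larger of the ratios, with no threshold, BR was farther from H2O than GA3 at 438 of the 677 genes and GA3 farther than BR at 239.

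**Figure D2:**
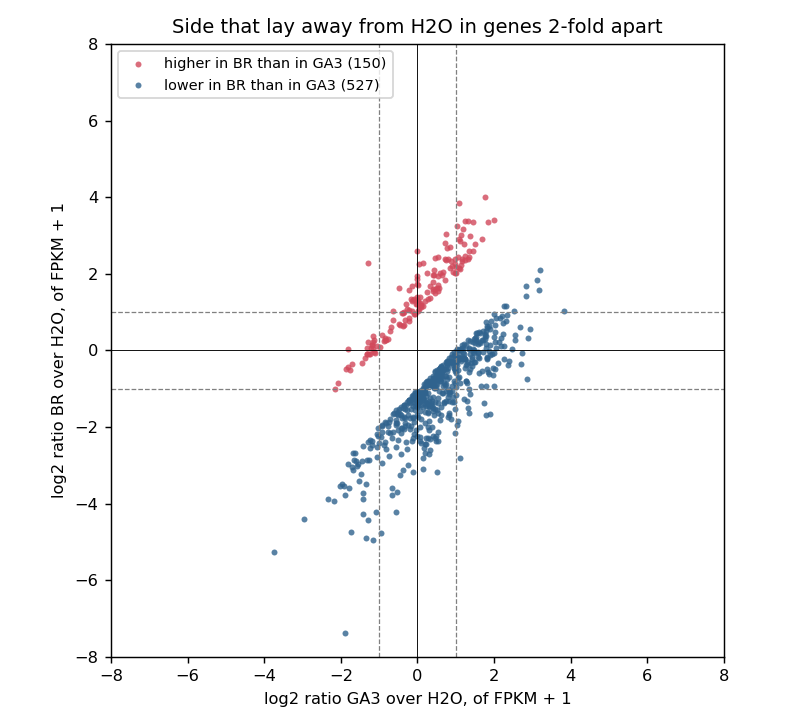
For the 677 genes at least 2-fold apart, the log2 ratio of BR over H2O (vertical axis) against the log2 ratio of GA3 over H2O (horizontal axis), with dashed lines at 2-fold. The 12 genes with BR below and GA3 above water sit beyond the dashed lines at the lower right and 1 gene at the upper left. The empty band along the diagonal follows from the choice of genes that differ 2-fold.

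Individual genes were ranked by the direct ratio among those of at least 10 FPKM in BR or GA3, overall and within each pattern. Of the genes low in BR alone, LOC112190949, on NC_037089.1 from 80185879 to 80188594, was at 5.38 FPKM in BR, 88.8 in GA3 and 172 in H2O. GA3 was only just short of the 2-fold limit below water, at a log2 ratio of -0.94, against -4.76 in BR. The other conditions in solution held this gene between 71.2 in JA and 187 in NAA, so that BR was below all of them, while it was at 26.4 in air (ET-CK). LOC112197838, on NC_037091.1 from 49286866 to 49361273, was at 14.2 FPKM in BR, 196 in GA3 and 137 in H2O. In the remaining solutions it ranged from 131 in ABA to 232 in SA. Its locus is deposited for 7 other identifiers, and how reads were divided between them was not examined.

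Of the genes high in GA3 alone, the leading pair lie close together on NC_037091.1. LOC112198546, from 49450445 to 49451282, was at 0.748 FPKM in BR, 20.2 in GA3 and 1.94 in H2O. It was higher still in JA, at 27.8, and was at 11.4 in SA and 10.4 in AgNO3, against 2.63 in NAA and 2.22 in ABA. LOC112198497, from 49491924 to 49492727, was at 6.21 FPKM in BR, 59.3 in GA3 and 8.17 in H2O. JA again gave the highest value of the solutions, 97.4, with 48.1 in AgNO3 and 45.0 in 2,4-D. SA, at 31.7, was close to 6-BA, at 28.3, while ET-CK, at 67.0, and 1-MCP, at 70.8, were above GA3. For both genes GA3, JA, SA and AgNO3 were well above water, though not they alone, and BR was near water, on its lower side.

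The 12 genes with BR below and GA3 above H2O had 0.286 to 15.4 FPKM in BR (median 2.34) and 6.15 to 171 in GA3 (median 23.8), with a median of 8.74 in H2O. BR was the lowest of the 10 conditions in solution for all 12, which the choice of genes favours. Among the other solutions the medians were 29.4 in JA, 29.3 in AgNO3, 26.8 in SA, 22.99 in 2,4-D and 19.5 in 6-BA, while ABA, at 12.01, and NAA, at 11.9, were nearer to water. LOC112167139, on NC_037092.1 from 23876830 to 23877675, was at 3.04 FPKM in BR, 61.0 in GA3 and 27.5 in H2O, a log2 ratio of -3.94 between the hormones. In the remaining conditions it ranged from 21.9 in ET-CK to 60.5 in JA, so BR alone was far below water. LOC112197637, on NC_037091.1 from 55998402 to 56000036, was at 2.72 FPKM in BR, 40.4 in GA3 and 10.9 in H2O. NAA (13.4), ABA (12.5) and ET-CK (13.0) stayed near water, and JA (44.7), AgNO3 (41.1) and SA (36.4) lay near GA3.

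Of the genes below water in both hormones, LOC112201936 had the largest difference of all, with a log2 ratio of BR over GA3 of -5.48. It was at 0.457 FPKM in BR and 64.3 in GA3, with 240.1 in H2O. It shares its locus, on NC_037092.1 from 69056213 to 69101527, with 3 other identifiers. In JA it was at 22.9, the next lowest value in solution, so that in solution BR was the lowest by a wide margin and water the highest, while ET-CK, at 0.672, was near BR. LOC112187733, on NC_037089.1 from 869319 to 871659 and alone at its locus, was at 9.60 FPKM in BR, 123 in GA3 and 314 in H2O, with 44.2 in JA as the next lowest value in solution.

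The genes higher in BR had smaller ratios. LOC112201019 had the largest, 3.57 on the log2 scale, and was the gene above water in BR and below it in GA3, at 12.1 FPKM in BR, 0.0994 in GA3 and 1.70 in H2O. Its value in BR was not the highest, since 6-BA gave 37.7, and its locus is shared with 1 other identifier. GA3 was near 0, as were NAA (0.405), JA (0.349), SA (0.261) and AgNO3 (0.259), so the low value was not particular to GA3. With a pseudocount of 0.1 its log2 ratio was 5.93. LOC112188563, on NC_037089.1 from 69002924 to 69004345, was at 74.3 FPKM in BR, 10.1 in GA3 and 4.20 in H2O, and the remaining solutions ranged from 4.58 in SA to 21.8 in JA. LOC112189534, on NC_037089.1 from 16808130 to 16809298, was at 30.3 FPKM in BR, 5.74 in GA3 and 2.29 in H2O. No other condition passed the value in GA3, so BR stood more than 4-fold above all of them.

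Of the genes high in BR alone, LOC112168074 was at 218 FPKM in BR, 44.0 in GA3 and 25.8 in H2O. BR was not extreme for it, since SA gave 624 and NAA 339. LOC112189819, on NC_037089.1 from 54802387 to 54803965 and alone at its locus, was at 56.3 FPKM in BR, 12.2 in GA3 and 17.6 in H2O, above every other condition, of which 1-MCP was the highest at 27.5. The genes low in GA3 alone were led by LOC112179460, on NC_037094.1 from 2806868 to 2808034. It was at 29.2 FPKM in BR, 9.66 in GA3 and 25.2 in H2O, but AgNO3, at 8.98, 1-MCP, at 5.79, and ET-CK, at 2.67, were lower than GA3. LOC112192865 was at 18.7 FPKM in BR, 6.63 in GA3 and 26.6 in H2O, and GA3 gave the lowest value of all 12 conditions while ABA gave the highest, 134. Its locus too is shared with 1 other identifier.

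**Figure D3:**
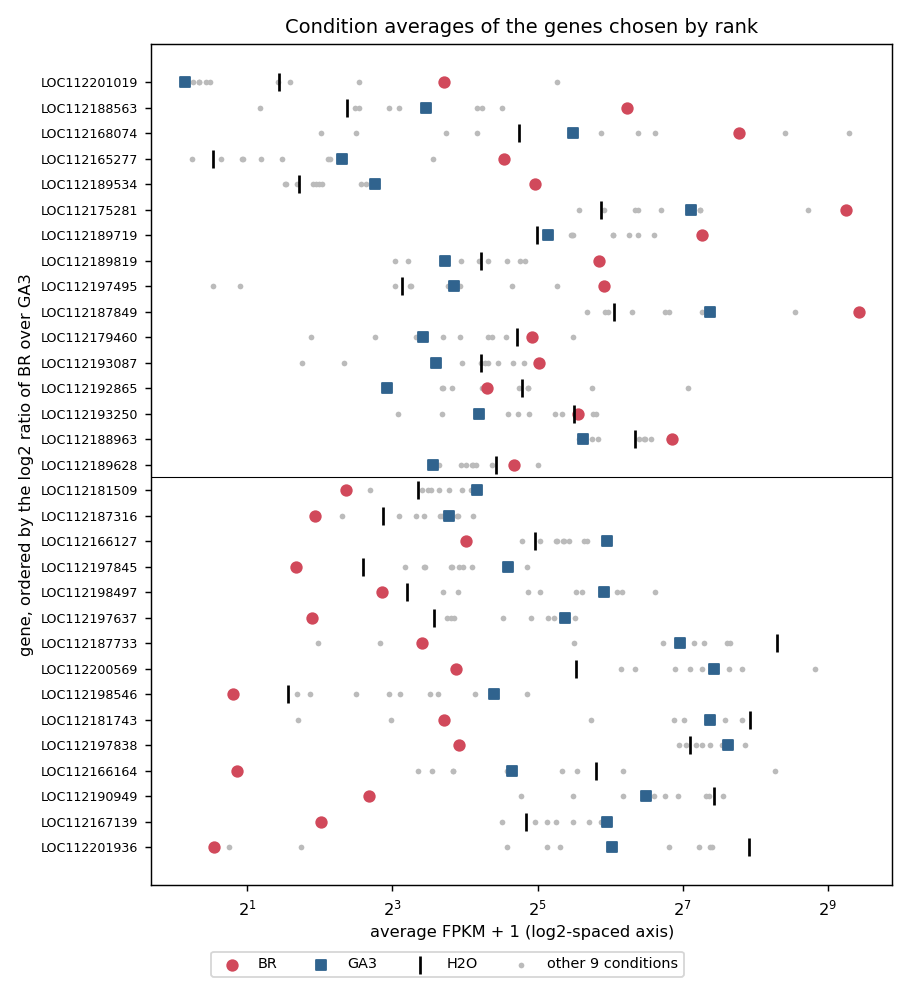
Average FPKM plus 1, on an axis spaced by log2, of the 31 genes chosen by rank, in BR (circles), GA3 (squares), H2O (bars) and the other 9 conditions (grey points). Genes below the horizontal line are lower in BR, and most of their circles lie left of all grey points, as for LOC112197838 at 14.2 FPKM in BR.

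Where neither hormone reached 2-fold from water, water necessarily lay between them, since the hormones were at least 2-fold apart. LOC112166127, on NC_037092.1 from 10329490 to 10333147, was at 15.1 FPKM in BR, 61.4 in GA3 and 30.3 in H2O, with log2 ratios to water of -0.96 in BR and 0.996 in GA3. LOC112193087 was at 31.4 FPKM in BR, 11.1 in GA3 and 17.7 in H2O. The limits apply to the ratio after 1 is added, so genes next to a limit can differ in level. A gene at 4.73 FPKM in BR and 1.87 in GA3 was just inside the 2-fold limit for higher genes, and another at 7.97 in BR and 3.49 in GA3 just outside. A gene at 0.405 FPKM in BR and 1.81 in GA3 was just inside the limit for lower genes, and another at 4.30 in BR and 9.59 in GA3 just outside. At the minimum of 1 FPKM, a gene with 0.607 in BR and 1.0007 in GA3 entered, and another with 0.9997 in BR and 0.400 in GA3 stayed out.

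Genes that differed were in part neighbours on the genome. Ordered by position among the genes compared, 14 runs of at least 3 neighbours differed in the same direction, 13 of them lower and 1 higher in BR, with 54 genes in all. How many runs would be met with the same genes in random order was not counted. Genes at the same deposited locus stand in arbitrary order, so where a run begins or ends there is arbitrary too. At 5 of the 13 lower runs the genes share a single deposited locus. Of the 677 genes, 183 (27.0%) stood at a locus deposited for more than 1 identifier, against 2372 (16.9%) of all genes compared. The share of genes lower in BR ranged over the 7 chromosomes from 3.05% on NC_037089.1 to 5.02% on NC_037091.1, and the share higher in BR was lowest on NC_037089.1, at 0.799%, and highest on NC_037094.1, with 29 of 1927 genes.

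The longest runs, of 8 and 7 genes, lay close together on NC_037091.1 between 49286866 and 49538859. All 8 genes of the first run share 1 deposited locus, and the 7 of the second stand at 4 loci. How reads were divided between identifiers of a locus was not examined, so the genes need not be separate cases. Of 25 genes compared in this region, at 13 loci, 16 were lower and 0 higher in BR. LOC112195946 was at 34.8 FPKM in BR, 299 in GA3 and 323 in H2O, and the most abundant of the 16 was at 394 FPKM in BR, 962 in GA3 and 2289 in H2O. The leading pair of genes high in GA3 alone, given above, lie here too. Over the 16 genes the median FPKM was 7.61 in BR and 46.7 in GA3, with 39.3 in H2O, and no other condition was below BR at any of them, the gas treatments included. Of the 16 genes, 10 were low in BR alone, 2 high in GA3 alone, 2 below water in both hormones, 1 below water in BR and above it in GA3, and 1 was 2-fold from water in neither. The other 9 genes were under 2-fold apart, among them 1 at 212 FPKM in BR, 199.6 in GA3 and 193 in H2O and 1 at 126 in BR, 218 in GA3 and 122 in H2O. The region was chosen after its values were seen, as was the next.

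The 1 run higher in BR, of 6 genes at 4 loci, lay on NC_037094.1 between 69728749 and 69935522. Of 9 genes compared there, 8 were higher and 0 lower in BR, including 2 genes that share the first locus with members of the run. LOC112175281 was at 609 FPKM in BR, 137 in GA3 and 57.4 in H2O. A second gene at its locus was at 1083 FPKM in BR, 296 in GA3 and 134 in H2O, the same order. LOC112180411, the gene named above among the most abundant, closes the run. The median of the 8 genes was 153 FPKM in BR and 49.9 in GA3, with 25.4 in H2O and 95.7 in JA, so JA lay between the hormones. The 8 genes were split evenly, with 4 high in BR alone and 4 above water in both hormones. A gene of the first locus was at 5.08 FPKM in BR and is listed at or near 0 in GA3 and H2O, so no fold is given for it.

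**Figure D4:**
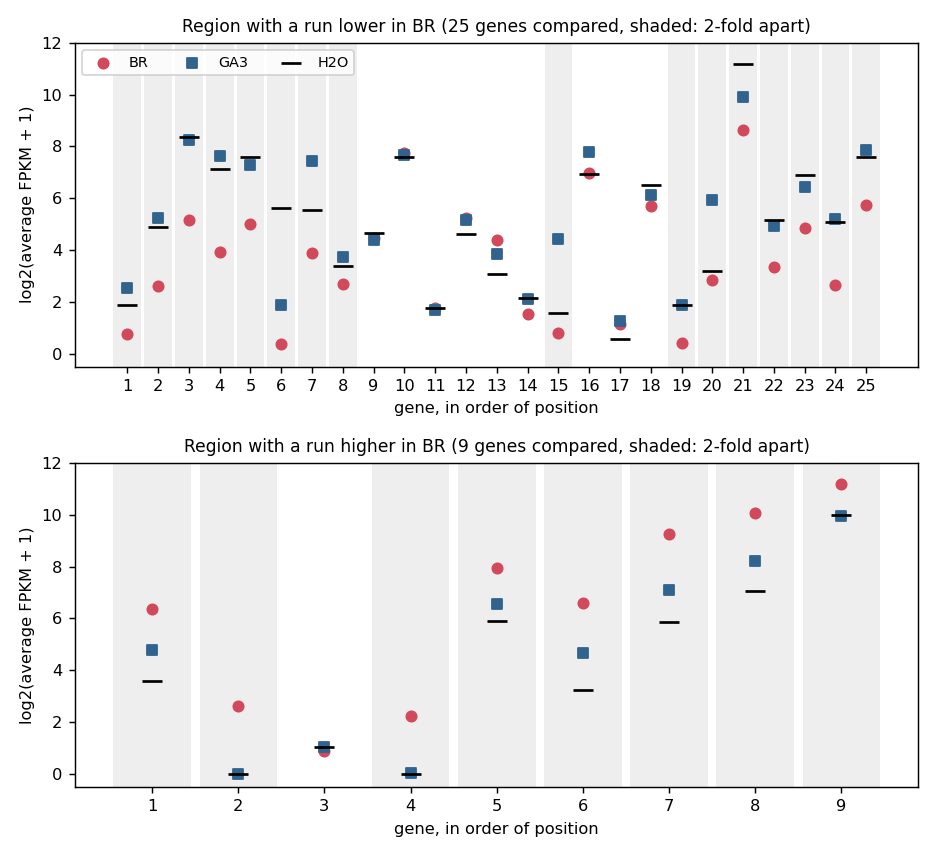
Log2(average FPKM + 1) of BR, GA3 and H2O for the 25 genes compared in the region of NC_037091.1 (upper panel) and the 9 in the region of NC_037094.1 (lower panel), in order of position, with genes at the same deposited locus in arbitrary order. Shaded genes are at least 2-fold apart: 16 with BR lower in the upper panel, and 8 with BR higher in the lower panel.

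The other conditions did not enter the choice of genes, but BR and GA3 did, so their ranks below only describe the chosen genes. The same ranks over all genes compared were not counted, and which hormone's value was the usual one was not tested. Of the 527 genes lower in BR, BR was the lowest of the 10 conditions in solution at 414 (78.6%), and GA3 the highest at 98 (18.6%). Of the 150 genes higher in BR, BR was the highest at 106 (70.7%) and GA3 the lowest at 31 (20.7%). The choice of genes favours such ranks for both hormones. BR was at least 2-fold beyond each of the other 9 conditions in solution at 175 lower and 35 higher genes, and GA3 at 4 and 3 genes. For GA3 those conditions include SA, AgNO3 and JA, the profiles nearest to it as counted below.

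For each of the 677 genes, the level in every other condition was also assigned to the nearer of BR and GA3 on the log2 scale. At the 527 genes lower in BR, the treatments in solution were mostly nearer GA3. AgNO3 was nearer BR at 7.78% of these genes, 2,4-D at 13.5%, SA at 13.7% and JA at 16.7%. The shares were larger for 6-BA, at 22.6%, NAA, at 30.2%, and ABA, at 31.3%. H2O was nearer BR at 38.9% and air (ET-CK) at 44.2%. For H2O, here and at the higher genes, this only restates which hormone was farther from water. The median FPKM of these genes was 3.41 in BR and 14.7 in GA3, while JA was at 13.8, AgNO3 at 13.4, SA at 13.2 and 6-BA at 15.2.

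At the 150 genes higher in BR, JA was the condition most often nearer BR, at 69 of them (46.0%). ET-CK was nearer BR at 45 genes, AgNO3 at 33, SA at 31 and H2O at 34. The median of these genes was 13.8 FPKM in BR, 8.77 in JA, 5.24 in SA and 5.08 in GA3, with 5.29 in H2O. Among the 140 genes high in GA3 with BR near water, JA was at a median of 18.7 FPKM, AgNO3 at 13.2, SA at 12.1 and 2,4-D at 11.0, against 6.82 in NAA, 6.07 in ABA and 4.42 in H2O. JA was nearer BR at 17 of these 140 genes and ABA at 111. At these genes JA, AgNO3 and SA were thus mostly on the side of GA3, and NAA and ABA mostly on the side of BR and H2O, which the choice of genes placed together.

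**Figure D5:**
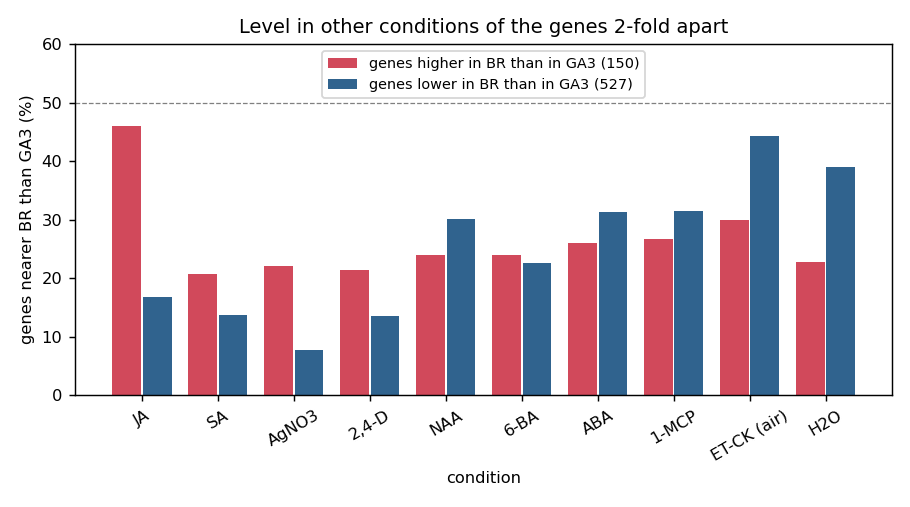
Percentage of the 150 genes higher (red) and the 527 genes lower (blue) in BR than in GA3 whose level in each other condition was nearer BR than GA3 on the log2 scale. No bar reaches the dashed line at 50%, and the highest are JA for the higher genes, at 46.0%, and ET-CK for the lower genes, at 44.2%.

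Counted over whole profiles, BR and GA3 were neither close nor far among the solutions. Of the 45 pairs of conditions in solution, 19 had fewer genes at least 2-fold apart than the 677 of BR and GA3. GA3 was nearest SA, with 262 genes apart, then AgNO3 with 311 and JA with 329. The nearest average to BR was GA3 itself, followed by JA with 748 genes apart, SA with 1020 and AgNO3 with 1164. Both were farthest from ABA, BR at 3459 genes and GA3 at 2831.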

How the data were processed

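RNA of outer petals was sequenced in 3 replicates per condition. The authors mapped the reads to RchiOBHm-V2 with TopHat2, assembled transcripts with Cufflinks and Cuffmerge, and deposited 1 average FPKM per transcript and condition, with Cuffdiff named in the submitters' notes. The normalization between conditions was not given in the sources used here. Sample groups come from the titles, and doses and times from the methods. The values deposited for ET equal those of air, and this 1 column was not used.

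FPKM of transcripts with the same identifier were summed, log2 ratios were taken after adding 1, and genes of at least 1 FPKM in BR or GA3 entered. Genes named were the 10 with the largest ratios in each direction and the 3 in each pattern and direction, at 10 FPKM or more. The text gives only some of these, and genes named for a run, for their abundance or in the closing section were chosen after their values were seen. Lists of hormone genes and promoter motifs were not used, since the identifiers are not paired with names. The genes, lists and thresholds were chosen with earlier results of these data known. With averages only, limma could not be run, and the deposited values carry no read counts per gene. Python 3.11.15, numpy 2.4.6, pandas 2.3.3 and matplotlib 3.10.9 were used.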

Additional observations from a re-analysis of the deposited data

How the results depend on the processing

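No paired analysis was possible because each condition is given as 1 average. For the same reason no replicate could be left out, and the gene lists and promoter motifs were not run. With a pseudocount of 0.1, 1079 genes were at least 2-fold apart and 314 were higher in BR, with 443 in BR alone, 262 in GA3 alone, 49 in opposite and 177 in the same direction from H2O. With the limit lowered to a log2 ratio of 0.5, 2389 genes were apart, 961 higher and 1428 lower in BR, with 632 in BR alone, 321 in GA3 alone, 254 in the same direction and 1169 in neither. The share of lower genes was 77.8% as reported, 70.9% with the pseudocount of 0.1 and 59.8% at the ratio of 0.5. With a minimum of 5 FPKM, 75 genes were 2-fold from H2O in neither hormone. Without summing, 257 transcripts were higher in BR. When the distance from H2O was called at a log2 ratio of 0.5, 104 genes lay in opposite and 163 in the same direction. The count in neither was 0 by necessity, since hormones 2-fold apart cannot both lie within 0.5 of H2O. With no threshold BR was the farther at 438. Median scaling shifted the ratio of BR over GA3 by 0.03 and kept 661 of the 677 genes. It moved none of the counts by 1.5 times, nor did leaving out joined names and shared loci, which left 494 genes. All 31 genes chosen by rank stayed at least 2-fold apart with the pseudocount of 0.1 and with median scaling. Neither setting could have given another outcome, since a smaller pseudocount always widens a ratio. The shift of 0.03 by scaling was too small to bring any of these genes under 2-fold. Genes under 5 FPKM in both hormones make up 36 of the higher and 124 of the lower genes, and without counts their sampling error cannot be given.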

Other observations

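GA3 lay at least 2-fold beyond every other condition in solution at 7 of the 677 genes. Of the 4 where it was the highest, LOC112179516 was at 6.88 FPKM in BR, 22.1 in GA3 and 4.70 in H2O, and the highest value elsewhere in solution was 7.79. Of the 3 where GA3 was the lowest, LOC112188933 was at 142 FPKM in BR, 63.0 in GA3 and 285 in H2O, with 132 as the lowest value elsewhere.

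Summing transcripts hid a few opposite differences. In 5 genes, 1 transcript was at least 2-fold higher and another at least 2-fold lower in BR than in GA3, and 1 of these genes was itself at least 2-fold apart. LOC112172593 had a transcript at 22.4 FPKM in BR, 5.88 in GA3 and 34.7 in H2O, and another at 20.6 in BR, 114 in GA3 and 15.6 in H2O. After summing, its log2 ratio of BR over GA3 was -1.46, since the second transcript outweighed the other. In all, 145 genes that were under 2-fold apart after summing had a transcript at least 2-fold apart. How reads were shared between transcripts of a gene is an estimate made from the reads, and its error was not examined.

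Petals held in air differed from those in water at some of the genes that were low in BR. Of the 213 genes low in BR with GA3 near water, ET-CK was nearer BR than GA3 at 82 (38.5%) and 1-MCP at 52 (24.4%), while 6-BA was nearer BR at 2 and AgNO3 at 4. Over all 527 genes lower in BR the ET-CK share was 44.2%, but these include the 213, and H2O itself was nearer BR at 38.9%. At the 213 genes H2O was nearer BR at 0, which their choice fixes. The shares therefore cannot show whether nearness of ET-CK to BR was particular to the 213 genes. LOC112195946, low in BR alone, was at 316 FPKM in ET-CK, against 34.8 in BR and 323 in H2O, so there air was level with water. LOC112187733, below water in both hormones, had only 2.94 FPKM in ET-CK and 6.12 in 1-MCP, against 9.60 in BR, 123 in GA3 and 314 in H2O. The values deposited for ET equal those of ET-CK, so whether they come from air or from ethylene cannot be told apart.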
